A study of Homo sapiens with 18 samples.

Results

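A set of 10 genes that hold epithelial cells together or mark their switch toward a mesenchymal state was followed in EpCAM+ hepatocellular carcinoma (HCC) cells treated with disulfiram (DSF) or 5-fluorouracil (5-FU). They were chosen by name, as CDH1, CDH2, CLDN1, CLDN4, OCLN, TJP1, GJB1, VIM, SNAI2 and ZEB1, and every array probe assigned to them was used. All 10 genes were on the array, out of 19720 named genes, with 13 probes in all. CDH2, OCLN and ZEB1 had 2 probes each and the other 7 genes had 1.

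The cells were the established human HCC lines Huh1 and Huh7, sorted for EpCAM, a surface marker of tumor-initiating HCC cells, by fluorescence-activated cell sorting. Each line gave a control group and groups treated for 48 hours with 0.1 µM DSF or with 1 µM 5-FU. There were 6 groups of 3 arrays and 18 arrays in all. The triplicates came from independent experiments. What the control cells received, and how long they were cultured, was not given in the sources used here. The study's methods describe DSF together with copper chloride, so DSF and copper cannot be told apart, and the doses of DSF and 5-FU differ.

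On every array all 10 hepatocyte and HCC markers, ALB, AFP and GPC3 among them, were well above background, as was EPCAM, while the endothelial receptors KDR and TEK were above background on no array. Between 59.87% and 71.1% of probes per array were well above background. The arrays were 1-colour, so their number limits the precision, and one sample's RNA stands for many cells: fewer cells of a type and less RNA per cell cannot be told apart. Slides were confounded in part. Slide 1 held the Huh1 arrays other than DSF replicate 3, slide 2 held that array with the Huh7 control and 5-FU arrays and Huh7 DSF replicate 1, and slide 3 held Huh7 DSF replicates 2 and 3. Replicate 1 of 5-FU had 15.9% of its probes more than 0.5 log2 from the mean of the other 5-FU arrays in Huh1 and 15.6% in Huh7. The other arrays had 6.07% to 15.2%, and Huh1 control replicate 1 (15.2%) and Huh7 DSF replicate 1 (14.9%) lay nearly as far from their groups. Values without the first 5-FU arrays are given where they change a result.

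Epithelial cells are joined by adherens junctions, in which E-cadherin (CDH1) binds its copy on the next cell, by tight junctions, in which claudins and occludin seal the space between cells, and by gap junctions, whose connexin channels let small molecules pass. Hepatocytes are rich in connexin 32, the product of GJB1, and their tight junctions line the bile canaliculi. In the epithelial-mesenchymal transition (EMT), factors of the SNAI and ZEB families bind E-box sequences in the promoters of junction genes and repress them, while N-cadherin (CDH2) and the intermediate filament vimentin (VIM) become more abundant.

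The E-box searched here was CACCTG or CAGGTG, which are reverse complements of each other, so that both strands were covered. Promoter windows of 300 bases, from 250 before to 50 after the start of transcription, came from RefSeq (GRCh38.p14) and were found for 8 of the members, not for CDH1 and SNAI2, in 19 windows, some of which overlap. Of 35116 windows in the table, 20.6% held at least 1 E-box, and 6 of the 19 member windows did. They belonged to GJB1, OCLN, TJP1 and ZEB1, and no box lay in the windows of CLDN4, CLDN1, CDH2 and VIM. Shown are stretches of 150 bases before the start for CLDN4, GJB1 and VIM, whose signals changed the same way in both lines after DSF, and for the first of the OCLN starts, whose signal rose in both lines after 5-FU. For GJB1 a site of 30 bases around its box, which starts 31 bases after the start, is added. Capitals mark the E-box.
CLDN4 (GRCh38.p14, chr7:73830846-73830995, plus strand): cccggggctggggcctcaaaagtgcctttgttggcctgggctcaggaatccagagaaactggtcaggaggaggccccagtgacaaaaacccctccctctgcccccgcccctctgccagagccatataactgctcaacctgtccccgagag
GJB1 (GRCh38.p14, chrX:71215089-71215238, plus strand): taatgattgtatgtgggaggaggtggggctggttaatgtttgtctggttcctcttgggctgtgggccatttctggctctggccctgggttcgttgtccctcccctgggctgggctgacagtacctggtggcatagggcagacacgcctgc
GJB1 site (GRCh38.p14, chrX:71215257-71215286, plus strand): ggcagcagcagcCAGGTGtggcagtgacag
VIM (GRCh38.p14, chr10:17228091-17228240, plus strand): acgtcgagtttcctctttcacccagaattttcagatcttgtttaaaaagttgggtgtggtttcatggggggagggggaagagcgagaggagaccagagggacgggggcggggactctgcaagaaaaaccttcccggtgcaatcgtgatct
OCLN (GRCh38.p14, chr5:69492397-69492546, plus strand): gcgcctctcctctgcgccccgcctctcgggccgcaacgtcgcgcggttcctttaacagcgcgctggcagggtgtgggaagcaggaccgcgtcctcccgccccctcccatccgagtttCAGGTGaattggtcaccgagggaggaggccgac

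Values below are normalized log2 signals, in which 0 is the 75th percentile of the array, given as replicates 1, 2 and 3. A change is a difference of group means on this scale with its standard error (SE), and a gene was called when limma's adjusted p was under 0.05 over all 29894 tested probes. Where a gene has 2 probes the brighter one stands for it.

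After DSF, 3 epithelial junction genes fell in both lines, namely CDH1, CLDN4 and GJB1, and VIM rose in both. In each line GJB1 and CLDN4 had the largest changes among the 10 genes. CDH2 and TJP1 were called in opposite directions in the lines. SNAI2, ZEB1 and OCLN were each called in 1 line, and CLDN1 in neither.

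For CDH1, the adhesion molecule of adherens junctions, the Huh1 control arrays read 1.86, 1.94 and 2.02 and the DSF arrays 1.32, 1.23 and 1.20. In Huh7 the control arrays read 4.19, 4.23 and 4.27 and the DSF arrays 3.10, 2.95 and 2.90. All DSF arrays were below all controls of their line, and all Huh7 arrays above all Huh1 arrays. The change was -0.69 (SE 0.23, adjusted p = 0.0232) in Huh1 and -1.25 (SE 0.23, adjusted p = 0.00049) in Huh7, a fall of 2.38-fold in the latter. In Huh1 the call was lost when control replicate 2 or 3 or DSF replicate 2 or 3 was left out (changes -0.69, -0.65, -0.68 and -0.67, adjusted p from 0.0534 to 0.0643), with spike-in scaling (-0.56, adjusted p = 0.125) and with the slide as a block (-0.67, adjusted p = 0.0684). The SE is estimated over all 6 groups. The SD was 0.53 in Huh1 5-FU and 0.47 in Huh7 5-FU, but 0.08 in Huh1 control and 0.06 after DSF. Without both first 5-FU arrays, a fit chosen after seeing the data, CDH1 was called in both lines (-0.69, adjusted p = 6.07e-05, and -1.25, adjusted p = 5.35e-07). Within a slide, 2 DSF arrays against 3 controls gave -0.67 in Huh1, and 1 against 3 gave -1.13 in Huh7.

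CLDN4, a sealing claudin of tight junctions, read 6.30, 6.45 and 6.35 in Huh1 control and 5.46, 5.45 and 5.51 after DSF. The Huh7 values were 2.00, 2.04 and 2.06 in control and 0.42, 0.33 and 0.41 after DSF. The groups lay far apart relative to their spread in both lines. CLDN4 fell by 0.89 (SE 0.13, adjusted p = 5.15e-05) in Huh1 and by 1.65 (SE 0.13, adjusted p = 2.02e-07) in Huh7, which is 1.86-fold and 3.13-fold. Both calls held in all 18 fits that left out 1 array, under spike-in scaling and with the slide as a block.

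GJB1, the main connexin of hepatocyte gap junctions, read 2.05, 2.07 and 2.03 in Huh1 control and 0.35, 0.35 and 0.36 after DSF. Its Huh7 values were 0.81, 0.79 and 0.78 in control and -0.81, -0.91 and -0.94 after DSF. In each line the DSF arrays lay far below the controls. It fell by 1.69 (SE 0.16, adjusted p = 1.13e-06) in Huh1 and by 1.68 (SE 0.16, adjusted p = 1.33e-06) in Huh7 on the log2 scale, or 3.24-fold and 3.21-fold. The difference between the lines was 0.01 with a 95% interval from -0.46 to 0.49. These calls too held in all 18 fits without 1 array, under spike-in scaling and with the slide as a block.

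VIM, the intermediate filament protein of mesenchymal cells, read 5.99, 5.78 and 5.77 in Huh1 control and 6.22, 6.19 and 6.26 after DSF. The Huh7 values were 5.37, 5.44 and 5.40 in control and 6.16, 6.13 and 6.10 after DSF. Every DSF array was above every control array, and the DSF arrays of both lines lay close together. VIM rose by 0.38 (SE 0.07, adjusted p = 0.00043) in Huh1 and by 0.72 (SE 0.07, adjusted p = 1.64e-06) in Huh7, a 1.30-fold and a 1.65-fold rise. Both calls held under every scaling tried.

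CDH2, which encodes N-cadherin, did not move as 1 gene. Its brighter probe read 2.56, 2.60 and 2.53 in Huh1 control against 2.37, 2.29 and 2.39 after DSF, and 3.03, 3.04 and 3.05 in Huh7 control against 3.45, 3.17 and 3.12. The change was -0.21 (SE 0.08, adjusted p = 0.0369) in Huh1 and 0.20 (SE 0.08, adjusted p = 0.0432) in Huh7. The dimmer probe read higher after DSF in both lines, by 0.36 (SE 0.08, adjusted p = 0.00283) and 0.48 (SE 0.08, adjusted p = 0.000288). The probes thus disagreed in sign in Huh1, and their mean gave 0.07 (adjusted p = 0.41). For the brighter probe the Huh1 call was lost without any 1 of the 6 Huh1 control and DSF arrays (-0.18 to -0.23, adjusted p from 0.0548 to 0.124). The Huh7 call was lost without Huh1 control 2 or 3, Huh1 5-FU 2 or 3, any Huh1 DSF array, any Huh7 control array or Huh7 DSF 1 (0.10 to 0.21, adjusted p from 0.0507 to 0.179), and neither call held under spike-in scaling (-0.08 and 0.03), nor the Huh7 call with normexp background correction (0.18, adjusted p = 0.0806). With the slide as a block the Huh7 change was 0.40 (adjusted p = 0.00231), since the 1 DSF array on the slide of the controls was the highest.

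TJP1, which encodes the tight junction scaffold ZO-1, read 1.80, 1.78 and 1.84 in Huh1 control and 1.52, 1.53 and 1.59 after DSF. The Huh7 values were 1.19, 1.24 and 1.20 in control and 1.50, 1.45 and 1.49 after DSF. The groups did not overlap in either line but moved in opposite directions, by -0.26 (SE 0.05, adjusted p = 0.000765) in Huh1 and 0.27 (SE 0.05, adjusted p = 0.00064) in Huh7. Under spike-in scaling the signs stayed but neither was called (-0.13 and 0.10).

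OCLN, which encodes the tight junction protein occludin, read -1.00, -1.08 and -1.06 in Huh1 control and -0.56, -0.73 and -0.67 after DSF. It rose there by 0.40 (SE 0.06, adjusted p = 0.00015), and by 0.45 (SE 0.08, adjusted p = 0.000542) on the dimmer probe. In Huh7 it read -0.20, -0.16 and -0.17 in control and 0.06, -0.08 and -0.09 after DSF, a difference of 0.14 (adjusted p = 0.0874). CLDN1, another sealing claudin, read 2.58, 3.46 and 3.48 in Huh1 control and 3.12, 3.06 and 3.11 after DSF, so the DSF arrays lay between control replicate 1 and the other controls. Its difference was -0.08 (SE 0.18, adjusted p = 0.766), and -0.37 (adjusted p = 0.00983) without control replicate 1. In Huh7 CLDN1 read 3.20, 3.19 and 3.23 in control and 3.17, 2.86 and 2.96 after DSF, a difference of -0.21 (SE 0.18, adjusted p = 0.367).

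ZEB1, an E-box repressor, read 1.37, 1.48 and 1.58 in Huh1 control and 1.60, 1.56 and 1.55 after DSF, with overlap and a difference of 0.10 (95% interval from -0.48 to 0.68). In Huh7 it read 1.30, 1.32 and 1.27 in control and 2.21, 1.98 and 1.93 after DSF. ZEB1 rose there by 0.75 (SE 0.27, adjusted p = 0.0359), and its dimmer probe gave 0.83 (SE 0.26, adjusted p = 0.017). Without any 1 of the Huh7 control and DSF arrays the brighter probe was no longer called (0.66 to 0.80, adjusted p from 0.0597 to 0.0963), nor with the slide as a block (0.92, adjusted p = 0.119) or spike-in scaling (0.57, adjusted p = 0.0937). The SE is estimated over all 6 groups. The SD was 0.84 in Huh7 5-FU, 0.03 in Huh7 control and 0.15 after DSF. Without both first 5-FU arrays, a fit chosen after seeing the data, the change was 0.75 (adjusted p = 9.53e-05). The dimmer probe kept its call in all 18 fits without 1 array, but not with the slide as a block (adjusted p = 0.109).

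SNAI2, the E-box repressor also called SLUG, was at the edge of detection. In Huh1 it read -5.29, -5.25 and -5.56 in control, with 2 of 3 arrays well above background, and -4.48, -4.97 and -4.97 after DSF, with 3 of 3. The difference was 0.56 (SE 0.27, adjusted p = 0.113). In Huh7 it read -7.47, -7.03 and -6.53 in control, with no array well above background, and -6.53, -6.04 and -5.96 after DSF, with 2 of 3. SNAI2 was at least 1.4-fold higher after DSF in Huh7 (adjusted p = 0.0217). For this bound each control array counted at the signal measured there or at that array's dimmest detected probe, whichever was higher. That call was lost without Huh7 control 1 or 2 or Huh7 DSF 2 or 3 (adjusted p from 0.0534 to 0.103), with the slide as a block (0.48, adjusted p = 0.404), under spike-in scaling (0.66, adjusted p = 0.0658) and with normexp background correction, where the change was 0.03 (adjusted p = 0.809).

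Counted together, 7 of 10 members were called after DSF in Huh1, beside 44.2% of all tested probes, and 8 of 10 in Huh7, beside 46.7%. In Huh1, 2 were higher, with 23.9% of all probes called higher, and 5 lower, with 20.3% called lower. In Huh7, 5 were higher (27.3% of all probes) and 3 lower (19.4%). The median change of the 10 was -0.14 in Huh1, against 0.002 over all probes, and 0.17 in Huh7, against 0.083. Arrays of 1 slide gave, with 2 DSF arrays against 3 controls in Huh1 and 1 against 3 in Huh7, -0.91 and -1.61 for CLDN4, -1.70 and -1.61 for GJB1, 0.36 and 0.75 for VIM and -0.28 and 0.29 for TJP1. Under spike-in scaling 4 members were called in each line, beside 31.8% of all probes in Huh1 and 31.3% in Huh7: VIM, CLDN4, GJB1 and OCLN in Huh1, and CDH1, VIM, CLDN4 and GJB1 in Huh7.

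The hepatocyte and HCC markers moved with these falls. After DSF 9 of 10 were lower and 0 higher in Huh1, with a median of -0.74, and 6 of 10 were lower and 0 higher in Huh7, with a median of -0.48. Their summed level, in units of the array's 75th percentile, was 692 to 757 in Huh1 control and 505 to 546 after DSF, and 1010 to 1040 in Huh7 control and 805 to 912 after DSF. EPCAM, the antigen used for sorting, fell by 0.66 (SE 0.17, adjusted p = 0.00633) in Huh1 and by 0.50 (SE 0.17, adjusted p = 0.0294) in Huh7, and after 5-FU it read 0.39 (adjusted p = 0.0764) and 0.25 (adjusted p = 0.239) above control. Their part in the falls of CDH1, CLDN4 and GJB1 was not tested. Beside the rise of VIM, the summed level of the 18 mesenchymal marker genes was 12.5 to 15.0 in Huh1 control and 11.9 to 12.7 after DSF, and 11.8 to 12.1 in Huh7 control and 6.22 to 6.90 after DSF. These sums were carried by few genes, FN1 and S100A4 in Huh1 and LOX in Huh7, where the mean level of LOX was 9.26 in control and 3.31 after DSF. FN1, COL5A1, S100A4, TAGLN, LOX, ITGA5 and LUM were well above background on all control and DSF arrays, and COL1A2, COL3A1, CDH11, THY1 and POSTN on none of them.

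After 5-FU, OCLN and CLDN1 rose in both lines. No scaling turned these directions, but spike-in scaling moved the median of all probes to 0.79 in Huh1 and 0.94 in Huh7, so it could hardly turn a rise. TJP1 was lower in both lines and VIM was lower in Huh1 and higher in Huh7, but with spike-in scaling TJP1 was higher in both lines and VIM higher in Huh1 as well. CDH1 was called in neither line, and of the EMT factors SNAI2 and ZEB1 were called in neither line.

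OCLN read 0.18, 0.22 and 0.24 after 5-FU in Huh1, above the controls at -1.00 to -1.08 by a wide margin. The Huh7 values were 1.57, 1.41 and 1.41, where the controls lay from -0.20 to -0.16. It rose by 1.26 (SE 0.06, adjusted p = 1.04e-08) in Huh1 and by 1.64 (SE 0.06, adjusted p = 1.58e-10) in Huh7, or 2.40-fold and 3.11-fold. The dimmer probe gave 1.29 (SE 0.08) and 1.51 (SE 0.08).

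CLDN1 read 3.58, 3.74 and 3.72 after 5-FU in Huh1, above all 3 controls, and 4.09, 3.85 and 3.74 in Huh7. It rose by 0.51 (SE 0.18, adjusted p = 0.0326) in Huh1 and by 0.69 (SE 0.18, adjusted p = 0.00494) in Huh7. In Huh1 the size rested on control replicate 1, since without it the change was 0.21 (adjusted p = 0.109). The call there was also lost without 5-FU replicate 2 (0.48, adjusted p = 0.0863) or 3 (0.49, adjusted p = 0.0826).

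CLDN4 read 6.30, 6.06 and 6.08 after 5-FU in Huh1, where 1 array lay among the controls, a difference of -0.22 (SE 0.13, adjusted p = 0.171) that was called without Huh7 5-FU replicate 2 (adjusted p = 0.0341). The Huh7 values were 2.45, 2.89 and 2.21, all above the controls, a rise of 0.48 (SE 0.13, adjusted p = 0.00445), and 0.29 without 5-FU replicate 2. The brighter CDH2 probe read 2.49, 2.54 and 2.51 in Huh1, a difference of -0.05 (SE 0.08), and 3.17, 3.34 and 3.31 in Huh7. CDH2 rose in Huh7 by 0.23 (SE 0.08, adjusted p = 0.0185), and by 0.60 (SE 0.08, adjusted p = 2.47e-05) on the dimmer probe. Leaving out Huh7 5-FU replicate 2 or 3 gave 0.20 (adjusted p = 0.07) and 0.21 (adjusted p = 0.0539) on the brighter probe.

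VIM read 5.18, 5.31 and 5.18 after 5-FU in Huh1, all below the controls, and 5.70, 5.84 and 5.89 in Huh7, all above them. The change was -0.63 (SE 0.07, adjusted p = 5.44e-06) in Huh1, which became 0.20 (adjusted p = 0.173) under spike-in scaling, and 0.41 (SE 0.07, adjusted p = 0.000154) in Huh7, which became 1.39. TJP1 read 1.37, 1.46 and 1.48 in Huh1 and 1.12, 1.03 and 1.01 in Huh7. Its changes of -0.37 (SE 0.05, adjusted p = 4.1e-05) and -0.16 (SE 0.05, adjusted p = 0.0178) became 0.45 and 0.83 under spike-in scaling. In Huh7 the TJP1 call was lost without control replicate 2 (-0.14, adjusted p = 0.0685), 5-FU replicate 2 (-0.14, adjusted p = 0.0533) or 5-FU replicate 3 (-0.13, adjusted p = 0.057).

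GJB1 read 1.89, 1.09 and 1.11 after 5-FU in Huh1, so replicate 1 lay close to the controls at 2.03 to 2.07. The change was -0.68 (SE 0.16, adjusted p = 0.00238), and -0.94 without that replicate, but 0.14 (adjusted p = 0.486) under spike-in scaling. In Huh7 it read 1.06, 1.36 and 1.07, above all controls, with a difference of 0.37 (SE 0.16, adjusted p = 0.0553). That difference was called without Huh1 5-FU replicate 1, 2 or 3 (0.37 each time, adjusted p = 0.000495, 0.0411 and 0.0448) and without both first 5-FU arrays (0.42, adjusted p = 0.000309).

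CDH1 read 2.56, 1.67 and 1.62 after 5-FU in Huh1 and 4.67, 4.14 and 3.73 in Huh7. In both lines replicate 1 lay above the controls and replicates 2 and 3 below them, and the changes were 0.01 (95% interval from -0.48 to 0.50) and -0.05 (95% interval from -0.54 to 0.44). Without both first 5-FU arrays the change was -0.29 in each line (adjusted p = 0.0329 in Huh1 and 0.0297 in Huh7), and under spike-in scaling of all arrays it was 0.84 and 0.94.

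ZEB1 read 1.34, 1.50 and 1.43 after 5-FU in Huh1, among the controls, a difference of -0.05. Its Huh7 values of 0.10, 1.28 and 1.72 spread around the controls, and its dimmer probe showed the same order at -2.68, -1.50 and -1.12. The difference of -0.26 (SE 0.27, adjusted p = 0.431) became 0.20 (adjusted p = 0.161) without replicate 1 and -0.61 (adjusted p = 0.0384) without replicate 3. SNAI2 read -5.18, -5.93 and -5.62 in Huh1, a difference of -0.21 (SE 0.27) that became 0.62 (adjusted p = 0.0411) under spike-in scaling and -0.43 (adjusted p = 0.000581) with normexp background correction. In Huh7 SNAI2 read -7.50, -7.33 and -8.14 and was well above background on 0 of 3 control and 0 of 3 5-FU arrays, so no fold is given.

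In all, 5 of 10 members were called after 5-FU in Huh1, beside 48.2% of all tested probes, and 6 of 10 in Huh7, beside 57.1%. In Huh1, 2 were higher (22.2% of all probes) and 3 lower (26.0%), and in Huh7, 5 were higher (27.3%) and 1 lower (29.7%), while under spike-in scaling 8 were called in Huh1, beside 76.0% of all probes. The median change of the 10 was -0.13 in Huh1, with -0.033 over all probes, and 0.30 in Huh7, with -0.048. Spike-in scaling, on 6 bright control probes whose RNA is added in a fixed amount, moved the median of all probes after 5-FU to 0.79 in Huh1 and 0.94 in Huh7, and after DSF to 0.14 and -0.09. With it 98.4% and 95.7% of all probes called after 5-FU were higher, against 46.1% and 47.9% before. Relative to those medians VIM after 5-FU in Huh1 lay at -0.59, GJB1 at -0.65 and TJP1 at -0.34. Under the 75th percentile scaling they lay at -0.60, -0.65 and -0.34 relative to the median. Both scalings subtract 1 constant per array, so these values had to agree and are no separate support. Hepatocyte and HCC markers went both ways after 5-FU, with 4 risen and 3 fallen in Huh1 and 5 risen and 3 fallen in Huh7.

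Setting DSF directly against 5-FU, at the doses used, asked which of the 10 genes separate the treatments. In both lines CDH1, CLDN1, CLDN4, OCLN and GJB1 were lower after DSF than after 5-FU. They were lower under spike-in scaling too, but it moved the median of all probes to -0.61 in Huh1 and -1.04 in Huh7. A negative difference could hardly turn there, so this is no separate support. CLDN4 differed by -0.67 (SE 0.13, adjusted p = 0.000495) in Huh1 and by -2.13 (SE 0.13, adjusted p = 6.55e-09) in Huh7, and GJB1 by -1.01 (SE 0.16, adjusted p = 0.000107) and -2.05 (SE 0.16, adjusted p = 7.3e-08). OCLN differed by -0.86 (SE 0.06, adjusted p = 1.3e-07) and -1.50 (SE 0.06, adjusted p = 3.2e-10), CLDN1 by -0.59 (SE 0.18, adjusted p = 0.0159) and -0.90 (SE 0.18, adjusted p = 0.0007). CDH1 differed by -0.70 (SE 0.23, adjusted p = 0.0197) in Huh1 and -1.20 (SE 0.23, adjusted p = 0.000399) in Huh7, but in Huh1 by -0.40 (adjusted p = 0.0957) without 5-FU replicate 1 and -0.68 (adjusted p = 0.0541) without DSF replicate 3, and -0.68 (adjusted p = 0.0611) with the slide as a block. Without both first 5-FU arrays the Huh1 difference of CDH1 was -0.40 (adjusted p = 0.00721). All comparisons of DSF with 5-FU use the same treated arrays as those with control.

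VIM was higher after DSF than after 5-FU by 1.01 (SE 0.07, adjusted p = 5.97e-08) in Huh1 and 0.32 (SE 0.07, adjusted p = 0.00117) in Huh7, but under spike-in scaling the differences were 0.31 and -0.84. ZEB1 in Huh7 was higher by 1.01 (SE 0.27, adjusted p = 0.00518), by 0.54 without 5-FU replicate 1, and differed by -0.15 under spike-in scaling. TJP1 in Huh7 was higher by 0.43 (SE 0.05, adjusted p = 6.14e-06), against -0.73 under spike-in scaling. SNAI2 was at least 1.95-fold higher after DSF than after 5-FU in Huh7 (adjusted p = 0.000296), but under spike-in scaling the measured difference was 0.32 (adjusted p = 0.258) and with normexp background correction 0.57. In Huh1 it differed by 0.76 (SE 0.27, adjusted p = 0.0307), a call lost under spike-in scaling (0.07, adjusted p = 0.813) and without 5-FU replicate 2 (0.59, adjusted p = 0.126), 5-FU replicate 3 (0.74, adjusted p = 0.0719) or DSF replicate 1 (0.60, adjusted p = 0.122). The brighter CDH2 probe was called in neither line (-0.16 and -0.03), with a call in Huh1 without Huh7 DSF replicate 1 (adjusted p = 0.0234) and in both lines under spike-in scaling (-0.85, adjusted p = 0.000159, and -1.19, adjusted p = 2.63e-06). Its dimmer probe was higher after DSF in Huh1 by 0.31 (adjusted p = 0.0065), but lower under spike-in scaling (-0.38, adjusted p = 0.0441). The members called were 7 of 10 in Huh1, beside 49.2% of all probes, and 9 of 10 in Huh7, beside 60.5%.

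Between the control groups, CLDN4 and CDH1 differed most among the 10 genes. Huh7 controls had 20.1-fold less CLDN4 signal than Huh1 controls (-4.33, SE 0.13, adjusted p = 3.79e-13) and 4.89-fold more CDH1 signal (2.29, SE 0.23, adjusted p = 3.68e-07). OCLN was higher in Huh7 by 0.87 (SE 0.06, adjusted p = 1.16e-08) and CDH2 by 0.48 (SE 0.08, adjusted p = 5.18e-05), 0.20 on its dimmer probe. GJB1 was lower in Huh7 (-1.26, SE 0.16, adjusted p = 4.27e-06), as were TJP1 (-0.60, SE 0.05, adjusted p = 6.66e-08) and VIM (-0.44, SE 0.07, adjusted p = 3.95e-05). SNAI2 was at least 2.46-fold higher in Huh1 controls, of which 2 of 3 arrays were well above background (adjusted p = 7.2e-05), while with normexp background correction the measured difference was -0.34. ZEB1 differed by -0.18 (95% interval from -0.76 to 0.40) and CLDN1 by 0.04 (95% interval from -0.36 to 0.43), the latter becoming -0.26 (adjusted p = 0.0367) without Huh1 control replicate 1. Thus 8 of 10 members were called, beside 70.7% of all probes. The lines were on different slides, linked by 1 array, and with the slide as a block CLDN4 stayed at -4.39 and CDH1 at 2.37.

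After 48 hours of DSF the CDH1 levels kept their order between the lines, with 2.98 ± 0.10 (SD, n = 3) in Huh7 and 1.25 ± 0.06 in Huh1. For GJB1 the mean over Huh1 DSF arrays, 0.35, was below the Huh7 control mean of 0.79. VIM means went from 5.85 ± 0.12 in Huh1 control and 5.40 ± 0.03 in Huh7 control to 6.23 ± 0.03 and 6.13 ± 0.03 after DSF.

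The difference between the lines in the response was tested as its own contrast. For DSF 5 of 10 members were called, beside 40.3% of all probes. CLDN4 fell more in Huh7 (difference -0.75, SE 0.18, adjusted p = 0.00401) and VIM rose more there (0.34, SE 0.10, adjusted p = 0.0123). TJP1 (0.53, SE 0.07, adjusted p = 6.06e-05) and CDH2 (0.41, SE 0.11, adjusted p = 0.00774) were lower after DSF in Huh1 and higher in Huh7, the latter on its brighter probe alone, since the dimmer gave 0.13 (adjusted p = 0.404). OCLN rose less in Huh7 than in Huh1 (-0.26, SE 0.09, adjusted p = 0.0333), a call lost in 9 of the 18 fits without 1 array: those without Huh1 control 2 or 3, Huh1 DSF 1 or 3, any Huh7 control array or Huh7 DSF 2 or 3 (-0.21 to -0.27, adjusted p from 0.0502 to 0.0904). It was -0.17 (adjusted p = 0.274) with the slide as a block and -0.18 (adjusted p = 0.152) with normexp background correction. CDH1 fell by more in Huh7 on average, but the difference of -0.56 had a 95% interval from -1.25 to 0.14 (adjusted p = 0.184), and it was called without both first 5-FU arrays (-0.56, adjusted p = 0.00465). ZEB1 differed by 0.65 (adjusted p = 0.193), and was called without Huh7 5-FU replicate 1 (0.65, adjusted p = 0.00358). With spike-in scaling only CLDN4 was called among the 10 (-1.06, adjusted p = 0.00258), with 8369 of all 29894 probes called.

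For 5-FU 5 of 10 members were called, beside 36.6% of all probes, and all 5 had the higher change in Huh7. GJB1 differed by 1.06 (SE 0.22, adjusted p = 0.0019) and VIM by 1.03 (SE 0.10, adjusted p = 2.93e-06). CLDN4 differed by 0.70 (SE 0.18, adjusted p = 0.00676), OCLN by 0.38 (SE 0.09, adjusted p = 0.00469) and TJP1 by 0.22 (SE 0.07, adjusted p = 0.0307). The OCLN difference was 0.22 (adjusted p = 0.169) on its dimmer probe. Under spike-in scaling 3 members were called, VIM, CLDN4 and GJB1, beside 23.0% of all probes. The TJP1 call was lost without Huh1 control 3, Huh1 5-FU 1, Huh7 control 1 or 3 or Huh7 5-FU 1 (0.18 to 0.21, adjusted p from 0.0563 to 0.0709) and without both first 5-FU arrays (0.15, adjusted p = 0.0849). CDH2 (0.28, adjusted p = 0.0566) was called without Huh7 5-FU 1 (0.34, adjusted p = 0.0265), Huh7 DSF 1 (0.28, adjusted p = 0.0108), Huh7 DSF 3 (0.28, adjusted p = 0.0471) or both first 5-FU arrays (0.32, adjusted p = 0.0421), and its dimmer probe differed by 0.55 (adjusted p = 0.00215). CLDN1 (0.18, adjusted p = 0.633) was called without Huh1 control 1 (0.48, adjusted p = 0.0161).

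**Figure D1:**
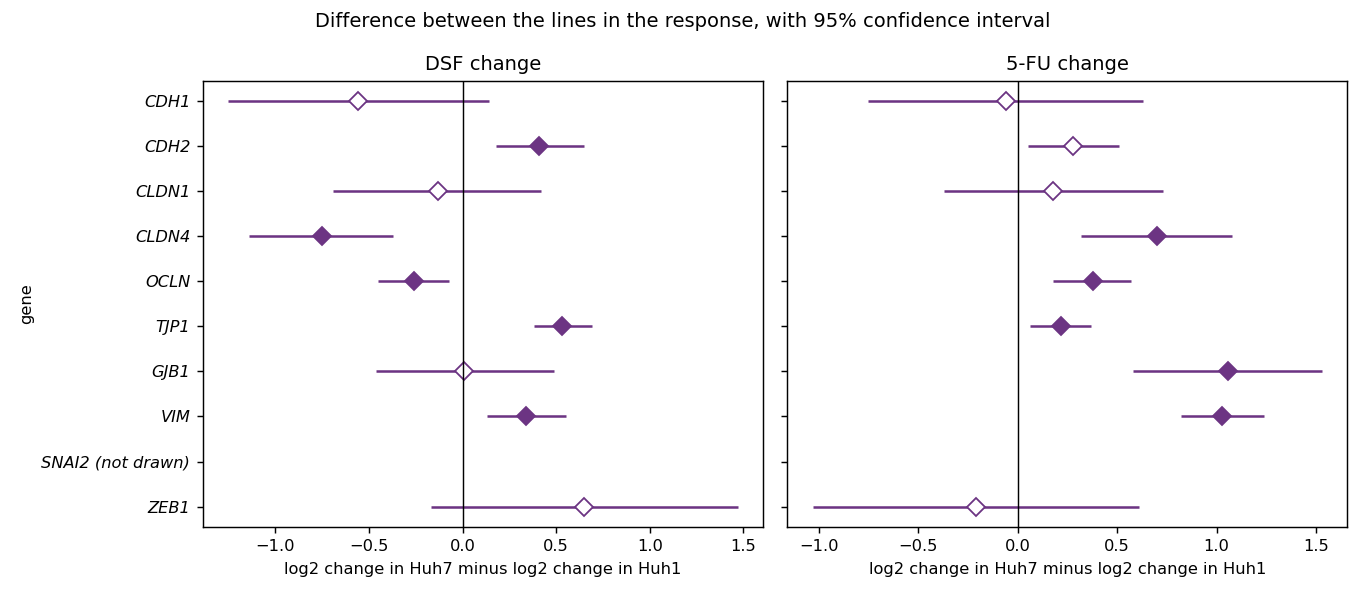
Log2 change in Huh7 minus log2 change in Huh1 (horizontal axis) of each gene (vertical axis) after DSF (left) and 5-FU (right), with 95% confidence intervals, filled where called. SNAI2, not above background in Huh7 controls, is not drawn. CLDN4 lies at -0.75 after DSF and at 0.70 after 5-FU.

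The other genes of the junctions and of the EMT program were taken from lists, 102 genes with 100 on the array and 79 tested. Their counts stand beside the shares of all probes called, which after DSF were 23.9% up and 20.3% down for Huh1 and 27.3% up and 19.4% down for Huh7, and after 5-FU 22.2% up and 26.0% down for Huh1 and 27.3% up and 29.7% down for Huh7. A list whose share is near these shows nothing particular to it. Among 12 adherens junction partners, 1 was higher and 5 lower after DSF in Huh1 (median -0.10), and 3 were higher and 5 lower in Huh7 (median -0.09). CTNND1, the p120 catenin that stabilizes cadherins at the membrane, fell with CDH1 in both lines, by 0.35 (SE 0.08) and 0.56 (SE 0.08). After 5-FU 1 was higher and 4 lower in Huh1 (median -0.16) and 5 were higher and 5 lower in Huh7 (median -0.04). CTNNB1, the beta-catenin that binds the cadherin tail, changed by -0.59 and -0.57 (SE 0.06 each), and by 0.24 and 0.42 under spike-in scaling.

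Of 21 tested tight junction genes outside the 10, 3 were higher and 8 lower after DSF in Huh1 (median -0.26) and 4 higher and 9 lower in Huh7 (median -0.28). CLDN3 fell by 1.30 (SE 0.18) in Huh1, and was lower in Huh7 (adjusted p = 1.35e-07), where 1 of 3 DSF arrays was well above background, so that no size is given. The scaffold gene CGN, for cingulin, fell by 0.63 and 1.07 (SE 0.12 each). CLDN2, a claudin that forms cation pores, rose by 1.65 and 0.86 (SE 0.20 each). After 5-FU 4 were higher and 4 lower in Huh1 (median 0.02) and 9 higher and 5 lower in Huh7 (median 0.35). The relatives of occludin at the tight junction rose beside it after 5-FU, MARVELD2 by 1.06 and 1.48 (SE 0.09 each) and MARVELD3 by 0.86 and 1.26 (SE 0.26 each). Lower in both lines were PATJ (-0.89 and -0.93, SE 0.10 each), a polarity scaffold, and CGN (-0.36 and -0.63, SE 0.12 each), but under spike-in scaling PATJ stood at -0.06 and 0.06 and CGN at 0.47 and 0.36.

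Among 8 tested connexins other than GJB1, 2 were higher and 2 lower after DSF in Huh1 (median 0.06) and 3 higher and 1 lower in Huh7 (median -0.23). GJB2, the other hepatocyte connexin, fell by 0.72 and 1.30 (SE 0.11 each) after DSF. After 5-FU it read -0.41 and -0.52 (SE 0.11 each, called in both lines), and 0.42 and 0.47 under spike-in scaling. After 5-FU 2 connexins were higher and 2 lower in Huh1 (median 0.16) and 4 higher and 1 lower in Huh7 (median 0.43). Of 6 tested desmosome genes, 2 were higher and 2 lower after DSF in Huh1 (median -0.02), and 1 was higher and 0 lower in Huh7 (median 0.07). After 5-FU 3 were higher and 1 lower in Huh1 (median 0.45) and 4 higher and 0 lower in Huh7 (median 0.57), with the desmosomal cadherins DSC2 (0.82 and 0.73, SE 0.10 each) and DSG2 (0.82 and 0.50, SE 0.09 each) higher in both lines. The genes counted lower in Huh1 after each drug include the connexin GJA1 and the desmosome gene DSG3. Both were above background on no Huh1 array, so these calls compare undetected signals.

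The EMT side was mixed. Of 8 tested EMT transcription factors outside SNAI2 and ZEB1, 2 were higher and 2 lower after DSF in Huh1 (median -0.14) and 1 higher and 5 lower in Huh7 (median -0.34). SNAI1, the paralog of SNAI2, rose by 1.69 (SE 0.14, adjusted p = 5.57e-07) after DSF in Huh1 and fell by 0.80 (SE 0.14, adjusted p = 0.000471) in Huh7. It was picked after its values were seen. ZEB2, the paralog of ZEB1, was above background on no control array, on 2 of 3 DSF arrays in Huh1 and on 3 of 3 in Huh7. It passed the filter only through the Huh7 DSF and 5-FU arrays, where it was high. Its calls, which the counts include, are therefore no independent support and no p is given. ZEB2 was at least 1.7-fold higher after DSF in Huh1, with an undetected array in that mean, and at least 2.97-fold higher in Huh7. After 5-FU 2 factors were higher and 1 lower in Huh1 (median 0.02) and 3 higher and 3 lower in Huh7 (median 0.23). ZEB2 was then at least 1.21-fold higher in Huh1, where 2 of 3 arrays were above background, and at least 2.58-fold higher in Huh7, where 3 of 3 were. The factor counted lower after 5-FU in Huh1 was GSC, above background on no Huh1 array. KLF8, counted higher after 5-FU in Huh7, passed the filter only through the Huh7 5-FU arrays, so that call is no independent support.

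Of 10 tested mesenchymal marker genes, 3 were higher and 2 lower after DSF in Huh1 (median -0.10), and 2 higher and 3 lower in Huh7 (median -0.10). TAGLN, which encodes an actin-binding protein of smooth muscle, rose beside VIM by 0.73 and 3.07 (SE 0.22 each). FN1, for fibronectin, fell by 0.80 (SE 0.09) in Huh1 and read -0.17 (adjusted p = 0.137) in Huh7. After 5-FU 3 were higher and 4 lower in Huh1 (median -0.15) and 4 higher and 2 lower in Huh7 (median 0.45). PDGFRB, counted higher after 5-FU in Huh7, passed the filter only through the Huh7 5-FU arrays, so that call is no independent support. It also counts as lower after DSF in Huh1, where no array was above background. COL1A1, counted lower after 5-FU in Huh1, was above background on 1 control array and no 5-FU array there. Of 14 tested epithelial identity genes, 3 were higher and 4 lower after DSF in Huh1 (median 0.08), 2 higher and 4 lower in Huh7 (median -0.11), and EPCAM was the single gene lower in both. After 5-FU 4 were higher and 1 lower in Huh1 (median 0.06) and 2 higher and 1 lower in Huh7 (median 0.24). Endothelial markers numbered 3 tested, of which 2 and 1 were called after DSF in Huh1 and Huh7 and 0 and 2 after 5-FU. Of 5 leukocyte markers 1 and 2 were called after DSF and 1 and 3 after 5-FU. CSF1R, counted after DSF in both lines and after 5-FU in Huh7, passed the filter only through the Huh7 DSF and 5-FU arrays. It was high there, so its calls are no independent support. In Huh1 it was above background on no array. These counts were made with the 75th percentile scaling, under which the medians over all probes were the 4 given with the members.

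The genes whose pattern over the 18 arrays was most like a member's were found by correlation, given as a description because arrays of a group share their treatment. For CDH1 they were FUT2 (Pearson r = 0.992), HEBP1 (0.988) and ATRN (0.985). For CDH2 they were USP1 (0.986), PSMF1 (0.984) and FAIM (0.982), and for VIM SPCS3 (0.966), FLNA (0.908) and UBQLN2 (0.900). FLNA, which encodes the actin crosslinker filamin A, had means of 3.20 in Huh1 control, 2.88 after 5-FU and 4.06 after DSF, and of 2.64, 3.38 and 3.99 in Huh7, the same order of groups within each line as VIM. These correlations mix the difference between the lines with the drug responses.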

How the data were processed

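RNA of EpCAM+ Huh1 and Huh7 cells was hybridized to 18 one-colour 60K arrays, 3 per group. The authors deposited spot intensity from Feature Extraction 10.7.1.1, named so in the submitters' processing notes and in another version in the methods. These intensity values are linear, corrected for background and unscaled. A second file of theirs holds normalized signal relative to the 75th percentile of its array. On the lowest array 100% of its probes lay within 0.05 log2 of 1 constant from the values used here.

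Here log2 of the processed intensity was averaged over unflagged spots (316 to 447 flagged and 0 saturated per array), and each array's 75th percentile was subtracted (10.098 to 10.839). Of 42405 probes, 78 without an unflagged spot on some array were left out. A probe was tested if the 3 arrays of some group all showed it well above background, which left 29894. Probes were named by RefSeq accession, 25771 of 27134 with a symbol. Genomic coordinates are those of the promoter table alone.

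All arrays entered a limma 3.58.1 fit (R 4.3.3) of 6 group means with Benjamini-Hochberg adjustment over all tested probes. For 3 against 3 arrays, 0.1 is the smallest p of an exact test. The fit was tested on simulated data. Replicate numbers were not used to pair arrays in the main fit, and whether they mark the same experiment was not given. Deviations of same-numbered arrays correlated from -0.093 to 0.103 over 45 pairs. No arrays were near-duplicates, with the highest correlation at 0.99725. Genes named outside the members were, per list and drug, up to 2 with the largest mean rise and up to 2 with the largest mean fall among genes called the same way in both lines, EPCAM, and the 3 most alike genes of CDH1, CDH2 and VIM, of which some are given. SNAI1 was added after its values were seen. FN1 after DSF and LOX were also named outside this rule, as were genes named for their detection. Members and lists were chosen with earlier results of these data known. Tables were made in Python 3.11.15 with pandas 2.3.3.

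The alternatives were median, quantile and spike-in scaling (6 probes), other filters and background correction, flagged spots kept, the deposited table, fits of only the groups compared, with array weights, with slide or replicate as a block, the mean of a gene's probes, and each array left out.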

Additional observations from a re-analysis of the deposited data

Results flagged for a closer look

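A total of 10 responses of the members differed between Huh1 and Huh7 by limma's test of the difference itself, adjusted over all tested probes. After DSF the Huh7 change exceeded the Huh1 change by 0.41 for CDH2 (changes of -0.21 and 0.20, adjusted p = 0.00774), 0.34 for VIM (0.38 and 0.72, adjusted p = 0.0123) and 0.53 for TJP1 (-0.26 and 0.27, adjusted p = 6.06e-05). The same difference was -0.75 for CLDN4 (-0.89 and -1.65, adjusted p = 0.00401) and -0.26 for OCLN (0.40 and 0.14, adjusted p = 0.0333). After 5-FU it was 1.03 for VIM (-0.63 and 0.41, adjusted p = 2.93e-06), 0.70 for CLDN4 (-0.22 and 0.48, adjusted p = 0.00676), 0.38 for OCLN (1.26 and 1.64, adjusted p = 0.00469), 0.22 for TJP1 (-0.37 and -0.16, adjusted p = 0.0307) and 1.06 for GJB1 (-0.68 and 0.37, adjusted p = 0.0019). CLDN4 was the gene among them whose difference had opposite signs for the drugs and was called under spike-in scaling for both (-1.06 and 0.86).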

How the results depend on the processing

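Across 89 changes of single members and 32 alternatives (18 leaving out an array and 14 others), 2622 of 2840 values kept direction and side of the threshold, 111 lost a call, 47 gained one and 60 changed sign, and the causes were not tested. The falls of CLDN4 and GJB1 and the rise of VIM after DSF, and the rise of OCLN after 5-FU, kept their calls in both lines under every alternative that was run. For OCLN, spike-in scaling moved the median of all probes upward after 5-FU, so it could hardly undo that call. The authors' value table and keeping flagged spots changed none of the 89. Signal near background limits what can be said of SNAI2.

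Spike-in scaling changed most. Members called went to 4 after DSF in Huh1 and 4 in Huh7, 8 after 5-FU in Huh1, and to 1 and 3 for the differences between the lines after DSF and 5-FU. Signs turned after DSF for CLDN1 in Huh1 (0.06) and OCLN in Huh7 (-0.03). After 5-FU they turned in Huh1 for CDH2 (0.78), VIM (0.20), SNAI2 (0.62), ZEB1 (0.77), CLDN4 (0.61), TJP1 (0.45) and GJB1 (0.14), and in Huh7 for CDH1 (0.94), ZEB1 (0.72) and TJP1 (0.83). For DSF against 5-FU they turned for ZEB1 (-0.54) and TJP1 (-0.58) in Huh1 and for VIM (-0.84), ZEB1 (-0.15) and TJP1 (-0.73) in Huh7. Between the lines they turned for SNAI2 (-0.03) and GJB1 (-0.29) after DSF and CDH1 (0.10) after 5-FU. The share of called probes that were higher went from 54.1% to 74.5% after DSF in Huh1 (33.0% with median scaling), from 58.5% to 34.6% after DSF in Huh7, from 58.2% to 6.87% and from 58.8% to 3.3% for DSF against 5-FU (40.7% with median scaling and 70.8% with normexp in Huh1), and from 52.3% to 17.1% (68.5% with median scaling) and from 51.3% to 67.1% between the lines. With normexp it was 29.5% and 35.1% after 5-FU.

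Fitting only the groups compared gave 3 members called after 5-FU in Huh1, and quantile normalization 3 between the lines after DSF. Quantile normalization also turned CLDN4 after 5-FU in Huh1 (0.10), VIM for DSF against 5-FU in Huh7 (-0.09) and GJB1 between the lines after DSF (-0.05). Median scaling turned ZEB1 after DSF (-0.07), CDH1 after 5-FU (-0.01), ZEB1 (-0.00) and TJP1 (-0.04) for DSF against 5-FU, all in Huh1, CLDN1 between the lines after DSF (0.02) and CLDN1 between the controls (-0.12). Array weights turned CDH1 after 5-FU in Huh1 (-0.32), CLDN1 (0.03) and GJB1 (-0.04) between the lines after DSF, CDH1 (0.21) and ZEB1 (0.02) between the lines after 5-FU and CLDN1 between the controls (-0.19). The slide block turned CDH2 for DSF against 5-FU in Huh7 (0.17), SNAI2 (-0.16) and CLDN1 (0.05) between the lines after DSF. The mean of both probes gave CDH2 0.07 after DSF and 0.07 for DSF against 5-FU in Huh1.

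The planned normexp correction on the mean spot signal was not run, because the files used hold no such column. On the median signal, chosen after seeing the data, it turned SNAI2 between the lines after DSF (-0.14) and CLDN1 between the controls (-0.04). Leaving out both first 5-FU arrays, also chosen after seeing the data, turned CDH1 after 5-FU in Huh1 (-0.29), ZEB1 after 5-FU in Huh7 (0.20) and ZEB1 between the lines after 5-FU (0.21).

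Leaving out 1 array gave 5 to 8 members called after DSF in Huh7, with 5 without Huh7 control 1 or 2. Values with a changed sign ranged from -0.37 to 0.08 for CLDN1 after DSF in Huh1, and after 5-FU from -0.29 to 0.17 for CDH1 in Huh1, from -0.29 to 0.18 for CDH1 in Huh7 and from -0.61 to 0.20 for ZEB1 in Huh7. For CDH2, DSF against 5-FU in Huh7, they ranged from -0.13 to 0.03. Between the lines they ranged from -0.29 to 0.16 for CLDN1 and from -0.02 to 0.04 for GJB1 after DSF, from -0.30 to 0.24 for CDH1 and from -0.55 to 0.26 for ZEB1 after 5-FU, and from -0.26 to 0.19 for CLDN1 between the controls.

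With the replicate block 86 of the 89 were as before and 3 lost their call, and 6 and 7 members were called after DSF in Huh1 and Huh7 and 5 and 6 after 5-FU. Same-numbered arrays did not deviate together, which cannot show whether a number marks the same experiment.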
